A study of Mus musculus with 20 samples.

Results

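Prostaglandins are local lipid signals made from arachidonic acid, and the genes described here encode 10 proteins that make them, break them down or receive them. They were Ptgs1 and Ptgs2 (the cyclooxygenases), Ptges, Ptges2 and Ptgis (synthases that finish single prostaglandins), Hpgd (breakdown), and Ptger1, Ptger2, Ptger4 and Ptgfr (receptors). They were chosen by gene symbol in the annotation of the array, and 8 of the 10 had a probe set of their own, among 22180 genes tested. Ptgs1 and Ptger1 are not analysed here. Each of the 8 was measured by 1 probe set, whose log2 signal is the level given throughout.

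Expression was measured on 20 arrays of total RNA from C2C12, a mouse myoblast line that fuses into muscle fibres or, under bone morphogenetic proteins (BMPs), turns towards bone. All cells grew in medium with serum and were kept below confluence, and the study set 3 compounds, known by the codes 942, 178 and 181, against recombinant BMP4. Untreated cells had 2 arrays and methanol 3; BMP4 was given at 10, 100 or 300 ng/ml, with 2 arrays a dose, and each compound at 6.25, 12.5 or 25 µM, with 1 array a dose. Untreated cells were the control of BMP4 and methanol was the control of the compounds; for how long cells were treated is not stated in the sources used. Single compound arrays have no replicate, C2C12 is 1 cell line, and the labels name no separate cultures behind the arrays of 1 group, so p-values reflect only how these samples spread, which may be technical.

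In the pathway, phospholipases free arachidonic acid from membranes, a cyclooxygenase turns it into the unstable prostaglandin H, and terminal synthases convert that into prostaglandin E, prostacyclin and others. The product leaves the cell, acts on receptors coupled to G proteins on the same or nearby cells, and is taken up and oxidised by 15-hydroxyprostaglandin dehydrogenase, the product of Hpgd, which ends the signal. In muscle and bone, prostaglandins E and F are known as signals of repair and of growth, and BMPs are known to induce the inducible cyclooxygenase in bone-forming cells.

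In BMP4-treated cells, Hpgd rose 9.16-fold and Ptgs2 3.35-fold as means over the 3 doses, and Ptgfr rose 1.6-fold. Ptgis, the prostacyclin synthase, fell, with a level 2.52-fold lower than in untreated cells. Ptges, Ptges2, Ptger2 and Ptger4 did not pass the test. In limma's fit with Benjamini-Hochberg adjustment over all 22180 genes, 3 of the 8 were therefore called higher, against 4.2% of all genes, and 1 lower, against 4.6%. The median difference of the 8 was 0.17 on the log2 scale, beside -0.01 over all genes. No member was called for any compound.

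The labels were checked on known responders. Over the 3 BMP4 doses the differences were 2.24 for Smad6 and 1.12 for Smad7, both called, while Id1 (1.03), Id2 (0.60) and Id3 (0.98) were not; Sp7, a bone transcription factor, stood at 3.97, Alpl, an osteoblast phosphatase, at 3.18 and Myog (myogenin) at -2.88. Of the marker lists, 4 of 6 myoblast genes fell, and 3 of 5 osteoblast, 3 of 6 adipocyte and 4 of 5 fibroblast genes rose; none of 7 macrophage, 5 endothelial and 5 mast cell genes was called in limma (2, 0 and 0 at an unadjusted p under 0.05, which 19.9% of all genes had). The mean signal of the myoblast list was 9.98 to 10.08 in the 5 control arrays and 8.05 to 8.16 at 300 ng/ml, and that of the osteoblast list 4.59 to 4.72 and 7.17 to 7.35. At 10 ng/ml the myoblast list stood at 10.08 to 10.12 and the osteoblast list at 4.68 to 4.96, and none of the 6 and 5 genes was called. Sp7 still read 5.76 and 4.65 there, above the 4.06 to 4.45 of the 5 controls, and Alpl (5.24 and 5.02) overlapped its controls. Hpgd was called at that dose, with limits given below. Lpl of the adipocyte and Dcn of the fibroblast list were also called there. At 100 and 300 ng/ml the markers moved together with the prostaglandin genes, and their part in those results was not tested. In such bulk samples fewer cells of a type and less RNA per cell cannot be told apart. Array medians lay between 4.93 and 5.05. The titles carry numbers in 2 runs, 10 to 17 and 18 to 29, and 4 arrays of the first run (BMP4 300 ng/ml replicate 1 and all of 942) were labelled by the Affyexpress method; the fit held a term for that method.

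Ptgs2, the inducible cyclooxygenase, carries out the committed step of prostaglandin synthesis. Its signal was 8.25 and 8.59 in untreated cells and 8.59, 8.63 and 8.58 in methanol. Under BMP4 it was 9.47 and 8.71 at 10 ng/ml, 10.59 and 9.89 at 100 ng/ml, and 10.97 and 11.17 at 300 ng/ml. All 6 BMP4 arrays lay above all 5 control arrays, and no 2 doses overlapped, although replicate 2 at 10 ng/ml was only just above the controls. The mean difference from untreated was 1.75 on the log2 scale (SE 0.21, 95% interval 1.29 to 2.20, adjusted p = 2.41e-04 in limma). By dose it was 0.67 at 10 ng/ml (adjusted p = 0.334), 1.82 at 100 ng/ml (adjusted p = 5.63e-04) and 2.75 at 300 ng/ml (adjusted p = 1.52e-04). The fitted rise was 0.41 per doubling of dose (SE 0.06, adjusted p = 0.00137). Against the untreated array of the same run, the mean over doses was 2.09 in the first run and 1.34 in the second, and at 10 ng/ml the 2 runs gave 1.22 and 0.12. For this and the other genes, the first-run mean includes the 300 ng/ml array of Affyexpress labelling, with no correction for that method.

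Promoters were read for the 7 measured genes that had one in RefSeq's table, since 4 of the 8 genes moved with BMP4. Ptgis, 1 of those 4, had none there and was not searched. The 300 bases around each gene's start (250 before it and 50 from it) were searched on both strands for TATAAA (the TATA box), TGACG (the core of the element bound by CREB), GGCGCC (a GC-rich element bound by the SMADs of the BMP pathway) and CAGCTG (an E-box bound by myogenic factors). Of 32851 RefSeq promoters of that length, 13.6%, 20.8%, 11.9% and 16.3% held these letters, in that order. Ptgs2 and Hpgd held 2 each, and Ptges, Ptges2, Ptger2, Ptger4 and Ptgfr held none of the 4. The Ptgs2 stretch is shown because it holds both the GC-rich element and the CREB core, in capitals, the latter on the minus strand and so read as CGTCA; the matches do not overlap. It covers chr1:150099781-150100060 on the plus strand of GRCm38.p6, 250 bases before the RefSeq start and 30 from it, with GGCGCC at -190 to -185 and CGTCA at 14 to 18, counted from 1 at the start. A match of letters is a description of the sequence and no sign that a factor was bound.
Ptgs2 promoter: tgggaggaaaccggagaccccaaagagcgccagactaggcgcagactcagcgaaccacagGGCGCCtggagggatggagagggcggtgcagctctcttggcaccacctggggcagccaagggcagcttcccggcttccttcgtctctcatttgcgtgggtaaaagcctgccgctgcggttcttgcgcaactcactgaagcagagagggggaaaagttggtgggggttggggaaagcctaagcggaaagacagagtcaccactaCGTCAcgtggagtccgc

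Ptgis makes prostacyclin, and it went the other way. Untreated cells gave 9.85 and 9.50, and methanol 9.77, 9.52 and 9.42. With BMP4 the signal was 9.21 and 9.17 at 10 ng/ml, 8.03 and 8.29 at 100 ng/ml, and 7.82 and 7.67 at 300 ng/ml. Every BMP4 array was below every control array and the doses did not overlap one another. The mean difference was -1.33 (SE 0.13, 95% interval -1.61 to -1.05, adjusted p = 5.36e-05 in limma). It was -0.48 at 10 ng/ml (adjusted p = 0.220), -1.51 at 100 ng/ml (adjusted p = 7.16e-05) and -2.0, a 4.0-fold lower level, at 300 ng/ml (adjusted p = 5.19e-05). The slope was -0.31 per doubling (adjusted p = 3.78e-04), and the means within the runs were -1.50 and -1.12.

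Neither terminal synthase of prostaglandin E was called, as a mean or at any dose. Ptges, the inducible synthase that is known to work with Ptgs2, had 5.42 and 5.14 in untreated cells and 5.56, 5.16, 5.94, 5.34, 5.64 and 5.47 in the BMP4 arrays in order of dose. The higher array of each of the 10 and 100 ng/ml pairs came from the first run, as did the higher untreated array, and the groups overlapped. Its mean difference was 0.21 (95% interval -0.22 to 0.64, adjusted p = 0.662 in limma). Against the untreated array of its own run, each of the 6 BMP4 arrays was higher, by 0.02 to 0.52, with means of 0.29 and 0.18 in the 2 runs. Ptges2, a synthase made in most cells, read 7.40 and 7.26 in untreated cells and, under BMP4, 7.29 and 7.21, then 6.90 and 6.88, then 7.15 and 7.20 as the dose rose. The lowest pair was thus that of the middle dose, where the difference was -0.44 (95% interval -0.74 to -0.14, adjusted p = 0.0731); over all doses it was -0.22 (95% interval -0.47 to 0.04, adjusted p = 0.358). Within the runs all 6 arrays were lower, by 0.05 to 0.50, with means of -0.28 and -0.16. At 100 ng/ml Ptges2 was called with a term for the run (adjusted p = 0.0234 in limma), with both controls together (adjusted p = 0.0235) and over genes with a mean signal of at least 5 (adjusted p = 0.0457), and in none of the other 6 settings or the 20 fits without 1 array.

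Hpgd had the widest range of the 8 genes over the 20 arrays, from 5.98 to 10.59, or 24.5-fold. Its product oxidises prostaglandins E and F to inactive forms. Untreated cells read 5.98 and 6.79, and methanol 6.0, 6.56 and 6.55; in both groups the lower array was that of the first run. BMP4 gave 8.01 and 7.98 at 10 ng/ml, 10.10 and 10.25 at 100 ng/ml, and 10.59 and 10.57 at 300 ng/ml. The pairs of BMP4 arrays were close together, did not overlap between doses, and all lay above the controls. The mean difference was 3.20 (SE 0.21, 95% interval 2.74 to 3.65, adjusted p = 3.14e-06 in limma). It was 1.61 at 10 ng/ml (3.05-fold, adjusted p = 0.00873), 3.79 at 100 ng/ml (13.8-fold, adjusted p = 3.13e-06) and 4.19 at 300 ng/ml (18.2-fold, adjusted p = 1.02e-05). The slope over the doses was 0.55 per doubling (adjusted p = 2.36e-04). Within the runs the mean over doses was 3.59 and 2.81.

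The Hpgd promoter stretch is printed because it holds the TATA box and the E-box, both in capitals, neither of which was found in the other 6 promoters searched. It covers chr8:56294302-56294581 on the plus strand of GRCm38.p6, again 250 bases before the RefSeq start and 30 from it. CAGCTG lies at -161 to -156 and TATAAA at 5 to 10, so the TATA letters fall just after the annotated start.
Hpgd promoter: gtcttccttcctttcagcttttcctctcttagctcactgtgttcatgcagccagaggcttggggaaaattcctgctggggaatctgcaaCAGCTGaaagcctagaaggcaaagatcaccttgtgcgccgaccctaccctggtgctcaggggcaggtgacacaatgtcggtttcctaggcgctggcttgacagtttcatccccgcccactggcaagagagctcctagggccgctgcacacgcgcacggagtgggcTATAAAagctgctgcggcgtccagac

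Among the receptors, Ptgfr, the receptor of prostaglandin F, was the one called. Its signal was 5.99 and 5.88 in untreated cells and 5.69, 6.09 and 6.06 in methanol. The BMP4 arrays gave 6.87 and 6.37 at 10 ng/ml, 6.68 and 6.59 at 100 ng/ml, and 6.94 and 6.59 at 300 ng/ml. All 6 lay above the 5 controls, but the doses overlapped: the rise was already there at the lowest dose. The mean difference was 0.68 (SE 0.16, 95% interval 0.33 to 1.03, adjusted p = 0.0193 in limma), and by dose it was 0.69, 0.70 and 0.65, called at 100 ng/ml only (adjusted p = 0.143, 0.0381 and 0.125). The slope was -0.005 per doubling (95% interval -0.10 to 0.09, adjusted p = 0.978). Within the runs the mean over doses was 0.84 and 0.64. The call at 100 ng/ml was lost with arrays centred on their median (adjusted p = 0.0585) and without untreated replicate 1 or 2, methanol replicate 2 or 3, or either array of that dose (adjusted p = 0.0561 to 0.176). The call of the mean rested on both untreated arrays: without replicate 1 the difference was 0.73 (adjusted p = 0.100) and without replicate 2 it was 0.63 (adjusted p = 0.143).

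**Figure D1:**
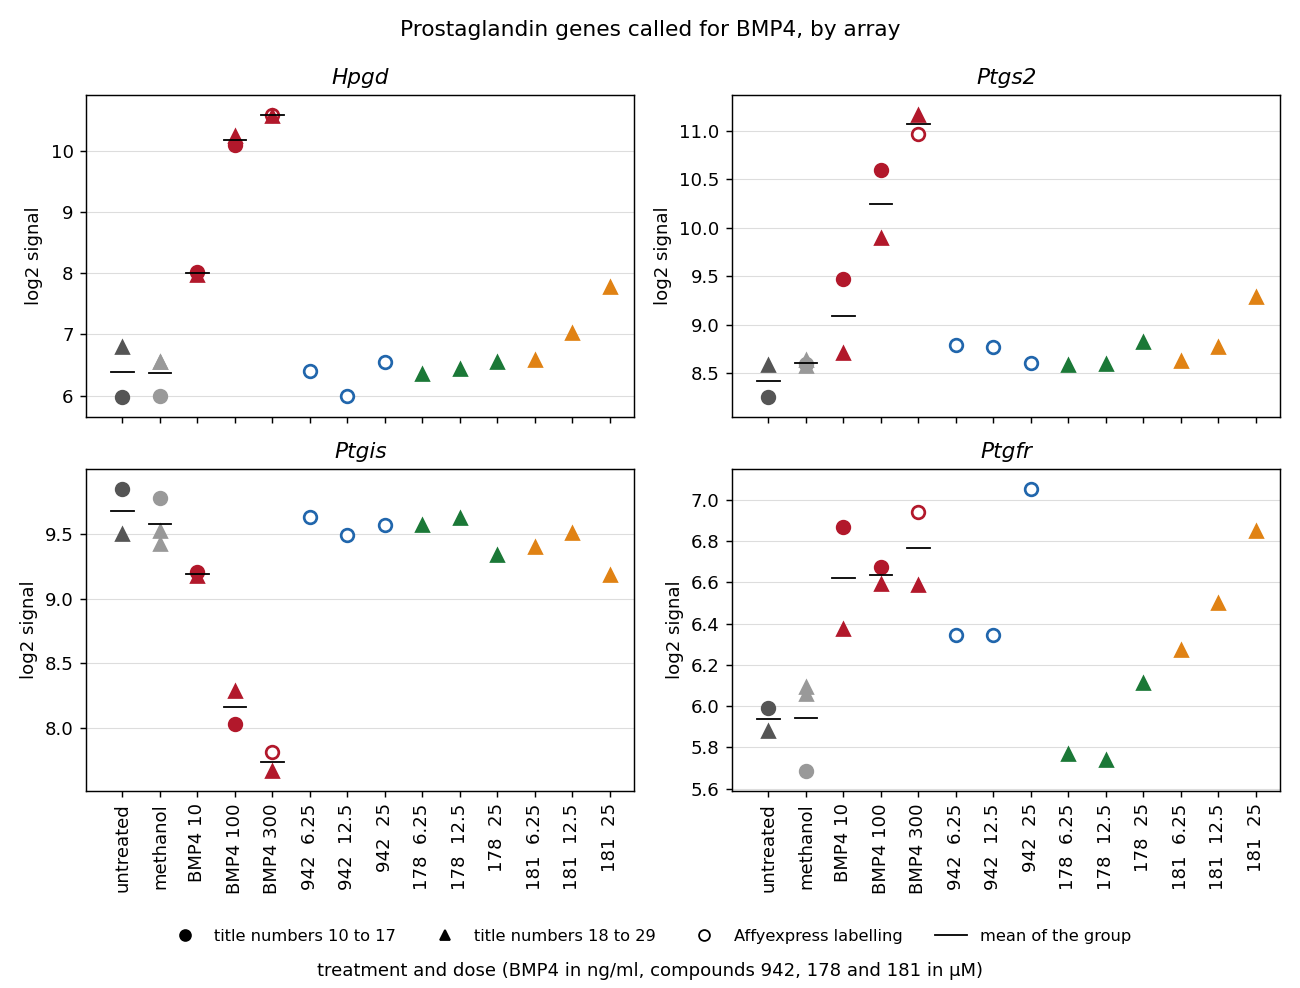
Log2 signal (vertical axis, not from 0) of Hpgd, Ptgs2, Ptgis and Ptgfr on each of the 20 arrays, by treatment and dose (horizontal axis; BMP4 in ng/ml, compounds in µM); circles are title numbers 10 to 17, triangles 18 to 29, open circles Affyexpress labelling (all of the first run), and bars are means of groups with over 1 array. Hpgd and Ptgs2 climb and Ptgis drops with BMP4 dose, Ptgfr is about level over the doses, and the 181 array at 25 µM lies on the BMP4 side of the controls in all 4 panels.

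Ptger4 and Ptger2 encode receptors of prostaglandin E that raise cyclic AMP. Ptger4 read 8.09 and 8.25 in untreated cells and, under BMP4, 7.98 and 7.82 at 10 ng/ml, 8.28 and 7.94 at 100 ng/ml, and 8.26 and 8.56 at 300 ng/ml. The lowest dose lay below the controls and the highest reached above them, so that the mean difference was 0.02 (95% interval -0.25 to 0.29, adjusted p = 0.968 in limma), while the slope was 0.12 per doubling (SE 0.03, adjusted p = 0.0610). That slope passed in 3 of 7 other settings. The adjusted p in limma was 0.0348 with a term for the run and 0.0461 with quantile normalization. It was 0.0446 over genes with a mean signal of at least 5. The slope was 0.116 without BMP4 100 ng/ml replicate 1 and 0.132 without replicate 2 of that dose. Without BMP4 300 ng/ml replicate 2 the top dose could not be fitted, and the slope from 10 to 100 ng/ml alone was 0.064. Ptger2 had a mean of 3.52 over the 20 arrays, and 14.5% of genes had a lower mean, so its level was near the floor of the array. It ranged from 3.30 to 3.52 in untreated cells and from 3.31 to 3.82 under BMP4, with a difference of 0.13 (95% interval -0.20 to 0.46, adjusted p = 0.750).

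**Figure D2:**
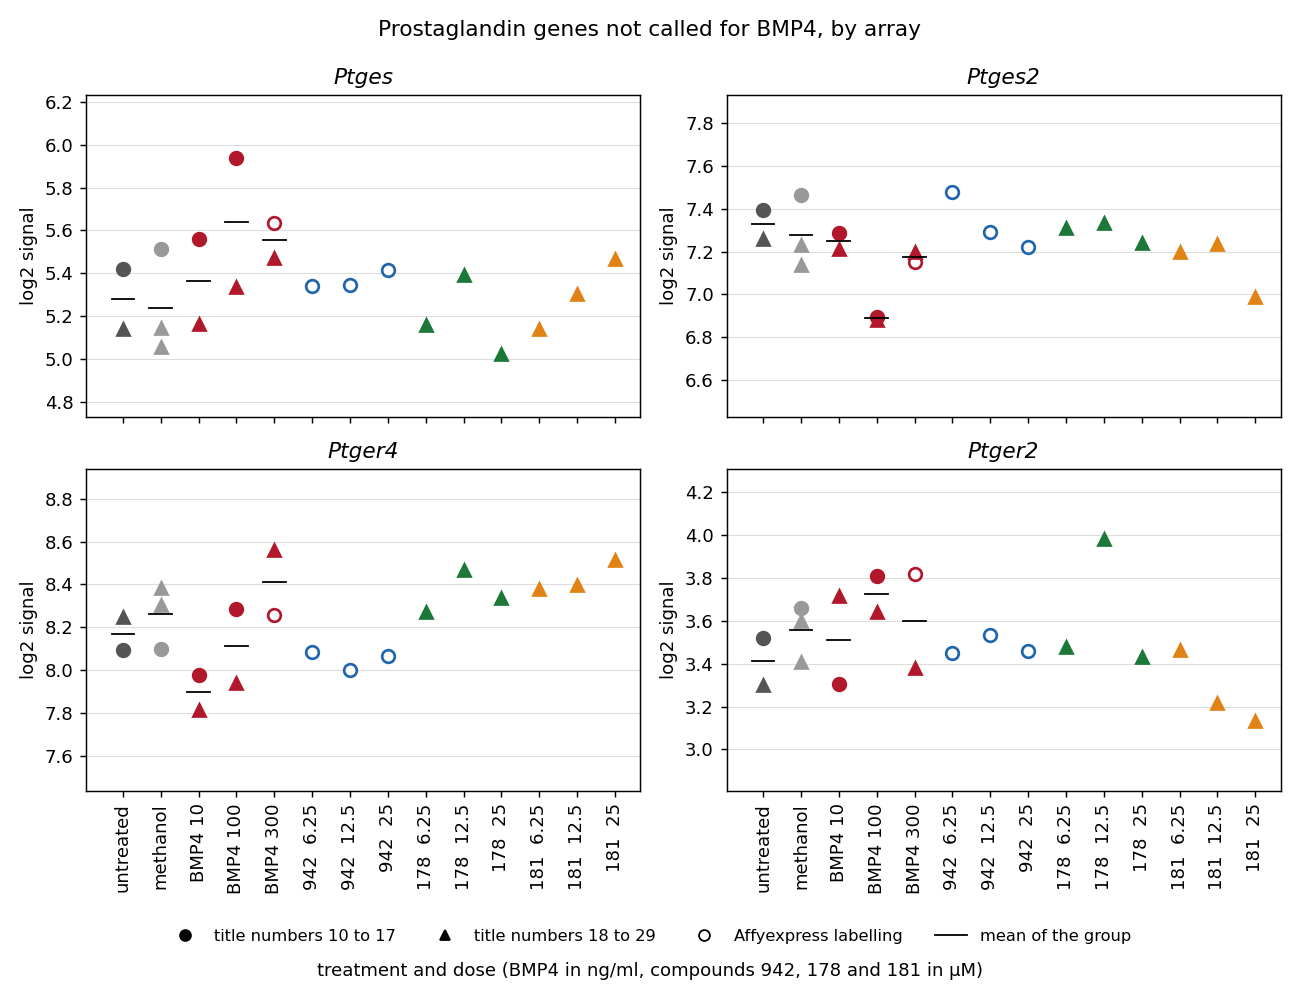
Log2 signal (vertical axis, not from 0) of Ptges, Ptges2, Ptger4 and Ptger2 on each array, drawn as for the genes that were called. Controls and BMP4 arrays overlap in each panel; the Ptges2 pair at 100 ng/ml is the lowest of its panel.

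Read dose by dose, Hpgd alone passed at 10 ng/ml, where 0.555% of all genes were called higher and 0.546% lower. At 100 ng/ml Hpgd, Ptgs2 and, less stably as given above, Ptgfr were called higher (4.4% of genes) and Ptgis lower (4.75%). At 300 ng/ml Hpgd and Ptgs2 were called higher (3.7%) and Ptgis lower (4.28%). By slope over the doses, Hpgd and Ptgs2 were called upward (2.32%) and Ptgis downward (3.08%). The groups did not overlap, with all 6 BMP4 arrays above all 5 controls, for Hpgd, Ptgs2 and Ptgfr (3.19% of genes) and below them for Ptgis (4.59%). The call of Hpgd at 10 ng/ml was lost when untreated replicate 1 or BMP4 10 ng/ml replicate 1 was left out, and with the methanol arrays added to the control Ptgfr was called there too. The 300 ng/ml mean came from replicate 2 alone, because the labelling term rested on that pair of arrays; replicate 1 minus replicate 2 was 0.02 for Hpgd, -0.20 for Ptgs2, 0.14 for Ptgis and 0.35 for Ptgfr.

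Over the 20 arrays the levels of the 3 genes that followed dose ran together, with Pearson's r of 0.94 between Ptgs2 and Hpgd and -0.97 between Ptgis and either of them. These points share the BMP4 doses, so r is a description of that pattern. The genes most like Hpgd over the 20 arrays were Glis3 and Mllt3, both nuclear regulators, and the transcriptional repressor Snai2 (r = 0.985, 0.982 and 0.977). Those most like Ptgs2 were Myo6, an unconventional myosin, Omd, a bone matrix proteoglycan, and the nucleotidase Samhd1 (r = 0.987, 0.984 and 0.981). Ptgis was most like Chrng, the fetal subunit of the muscle acetylcholine receptor, Tmem182 and Tmem38a, a channel of the sarcoplasmic reticulum (r = 0.984, 0.983 and 0.982). Over the 14 arrays without BMP4, r was lower for each of these 9 pairs, between 0.555 and 0.851. For Ptgfr the nearest genes were Eya1, a transcriptional coactivator, the platelet chemokine gene Ppbp and the quinone reductase gene Nqo1, with r of 0.877, 0.864 and 0.845 over all 20 arrays and 0.865, 0.886 and 0.925 over the 14.

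The other genes of the pathway were taken from 7 lists with 77 measured members, of which 9 rose and 6 fell in BMP4-treated cells, 19.5% in all beside 8.81% of all genes tested (4.2% higher, 4.6% lower). The lists were chosen with earlier results of these data known, so the larger share is no test of the pathway. Of 16 genes that release arachidonate, 1 rose: Pla2g4a, the cytosolic phospholipase that supplies the cyclooxygenases, was 6.95 and 7.11 in untreated cells and 7.47, 7.13, 8.02, 8.03, 8.25 and 8.24 under BMP4 in order of dose. The arrays at 100 and 300 ng/ml lay clear of the controls and replicate 2 at 10 ng/ml did not; the difference was 0.83 (adjusted p = 0.00196 in limma). None of 6 other prostanoid synthases was called in limma (median 0.20), and 1 of the 6 had an unadjusted p under 0.05, beside 19.9% of all genes. Ptges3, a further prostaglandin E synthase, stood at 0.33. The prostaglandin D synthases Ptgds and Hpgds were at -0.31 and 0.23, and Tbxas1, the thromboxane synthase, at 0.14. Of 8 genes of transport and further breakdown, 1 fell, the transporter gene Slco3a1 at -0.85 (adjusted p = 0.00169). Ptgr1, an enzyme that acts after Hpgd in prostaglandin breakdown, stood at 0.42 (adjusted p = 0.0529 in limma). It was called at 100 ng/ml, at 0.70 (adjusted p = 0.00790). In the same list Ptgr2 stood at -0.17 and Zadh2 at 0.05, neither of them called (adjusted p = 0.611 and 0.907). Of 5 other genes that encode prostanoid receptors or are only named after one, 1 fell. It was Ptgir, the receptor of prostacyclin, at -0.54 (adjusted p = 0.0318 in limma), and its 10 ng/ml arrays overlapped the controls.

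The sister pathway of leukotrienes held 12 measured genes, with 1 called each way and a median of -0.13. Alox5, the 5-lipoxygenase that opens leukotriene synthesis and is best known from white blood cells, had 10.78 and 10.80 in untreated cells and 10.72, 10.73 and 10.68 in methanol. Under BMP4 it fell to 9.96 and 10.03, then 7.13 and 9.45, then 6.58 and 7.16 with rising dose. No BMP4 array reached the controls, and the pair at 100 ng/ml was the widest apart. The difference was -2.31 (SE 0.41, adjusted p = 0.00372 in limma). The mean signal of the 7 macrophage markers, none of them called, was 4.41 to 4.50 in the controls and 4.68 to 4.72 at 300 ng/ml. Cysltr2, a receptor of cysteinyl leukotrienes, was at 0.74 (adjusted p = 0.00792), from levels between 2.69 and 4.44 near the floor. Without BMP4 300 ng/ml replicate 2 that dose could not be fitted, and the mean over 10 and 100 ng/ml was 0.36 for Cysltr2. Leaving out untreated replicate 2 gave 0.53 over the 3 doses.

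Of 14 genes known to answer cyclic AMP and CREB, which Ptger2 and Ptger4 act through, 5 rose and 2 fell, with a median of 0.39. Fos, an AP-1 subunit and immediate early gene of many stimuli, was 6.28 and 6.41 in untreated cells and 7.58, 7.58, 8.20, 8.00, 8.48 and 8.34 under BMP4. Its BMP4 arrays stood well clear of the controls at every dose, with a difference of 1.66 (adjusted p = 4.45e-06 in limma). The orphan nuclear receptor genes Nr4a1 (0.76), Nr4a2 (0.81) and Nr4a3 (0.68), which also answer many stimuli, and Pde4b (0.47), a phosphodiesterase that breaks down cyclic AMP, rose. Sik1 (-0.84), a kinase that restrains CREB's coactivators, and Ppargc1a (-0.52), a coactivator of mitochondrial genes, fell. Of 16 regulators of Ptgs2, Cebpd (0.74), a transcription factor that activates it, and Nr3c1 (0.53), the glucocorticoid receptor, rose and Celf2 (-1.16), which binds the Ptgs2 message, fell (median 0.08). Called at a single dose and not in the mean were also Rgs2 at 10 ng/ml (1.32) and Alox8 (0.77), Per1 (0.50) and Nfil3 (0.81) at 300 ng/ml.

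How many of the 77 were called moved with the settings, as did the share of all genes. With methanol as the control 26 were called (33.8%, against 11.1% of all genes), with both controls together 31 (40.3% against 15.1%), and with a term for the run 25 (32.5% against 13.5%). Among genes with a mean signal of at least 5, 15 of 50 were called (30%, against 17% of all such genes). Without untreated replicate 1 there were 9 (11.7% against 4.13%) and without replicate 2 there were 8 (10.4% against 5.41%). Pla2g4a, Slco3a1, Alox5, Nr4a1, Fos and Sik1 were called in each of 10 other settings and of 20 fits without 1 array; the other 9 genes lost the call in at least 1. Without untreated replicate 1 these were Ptgir, Nr4a2, Nr4a3, Pde4b, Ppargc1a and Cebpd, and without replicate 2 Ptgir, Cysltr2, Nr4a2, Pde4b, Ppargc1a, Cebpd and Nr3c1. Without BMP4 300 ng/ml replicate 2 the mean covered 10 and 100 ng/ml only. The calls lost there were those of Ptgir, Cysltr2, Nr4a2 (0.45), Nr4a3, Ppargc1a and Cebpd. Leaving out methanol replicate 2 or 3 or an array at 10 or 100 ng/ml ended calls of Ptgir, Nr4a2, Pde4b or Ppargc1a, with adjusted p of at most 0.0600, and Celf2 lost its call where the doses of a treatment shared 1 mean (adjusted p = 0.0723).

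**Figure D3:**
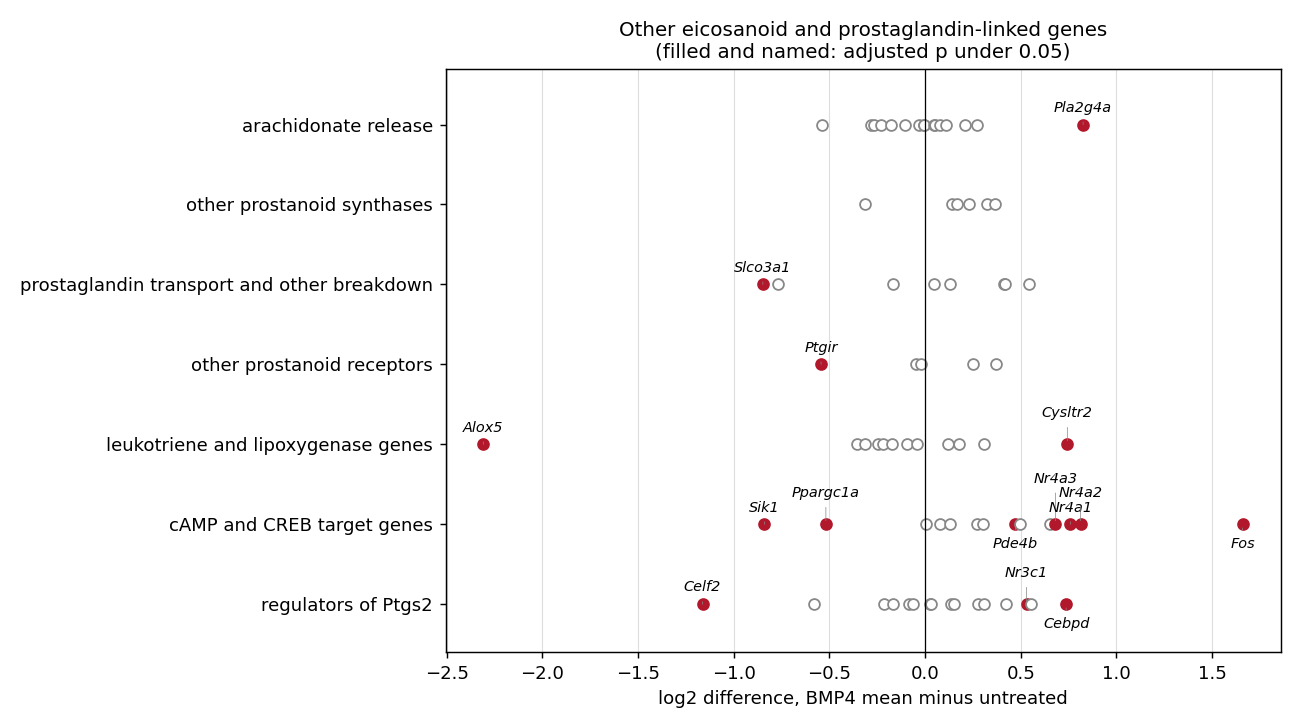
Log2 difference, BMP4 mean over 3 doses minus untreated (horizontal axis), for each of the 77 measured genes of the 7 other lists (1 row a list); filled points with a name had an adjusted p under 0.05 in limma. Most genes lie near 0, with Alox5 farthest to the left at -2.31 and Fos farthest to the right at 1.66.

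None of the 8 genes was called for the compounds, and hardly any gene was. Of 22180 genes, 0% were called for the mean of 942, 0% for that of 178 and 0.00451% for that of 181 against methanol in limma's fit, and 0.018% for 181 at 25 µM. At an unadjusted p under 0.05 there were 0 of the 8 for 942, 0 for 178, 2 for 181 (Hpgd and Ptgfr) and 4 for 181 at 25 µM (Ptgs2, Ptgis, Hpgd and Ptgfr); over all genes the counts were 333, 547, 816 and 1416. Methanol minus untreated gave 0 of the 8 at either threshold (0% of genes called, 634 genes at the unadjusted threshold), with the largest difference at 0.18, for Ptgs2.

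Hpgd read 6.58, 7.03 and 7.77 at 6.25, 12.5 and 25 µM of 181, against 6.56 and 6.55 in the methanol arrays of the same run. The array at 25 µM lay above all 5 controls and below all 6 BMP4 arrays. Its difference from methanol was 1.4 at 25 µM (95% interval 0.79 to 2.02, adjusted p = 0.257 in limma), and the mean over the doses was 0.76 (95% interval 0.32 to 1.19). With 178, Hpgd was 6.35, 6.43 and 6.56, and with 942 it was 6.40, 6.0 and 6.54, all within the range of the controls of both runs. The 942 arrays were all of the first run, whose controls read 5.98 (untreated) and 6.0 (methanol). Against that methanol array they differed by 0.41, 0.004 and 0.55, with no correction for labelling. Against the methanol arrays of both runs, the means were 0.07 for 178 (95% interval -0.36 to 0.51) and -0.07 for 942 (95% interval -0.94 to 0.80). The wider interval of 942 comes from the labelling term.

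Ptgfr was 6.27, 6.5 and 6.85 under 181 with rising dose, each above the 5 controls. The difference from methanol was 0.59 as a mean (95% interval 0.26 to 0.93, unadjusted p = 0.00237 in limma) and 0.90 at 25 µM (adjusted p = 0.312). Under 178 it was 5.77, 5.74 and 6.11, near the controls, with a mean of -0.07. Under 942 it was 6.35, 6.35 and 7.05, above the controls too, and the array at 25 µM was the highest of all 20. Those 942 arrays were all of Affyexpress labelling: against the methanol array of their run they differed by 0.66, 0.66 and 1.37, and with the labelling term the mean was 0.29 (95% interval -0.39 to 0.96).

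Ptgs2 was 8.62, 8.76 and 9.29 under 181, 8.59, 8.60 and 8.82 under 178, and 8.79, 8.77 and 8.60 under 942. The highest of these, 181 at 25 µM, lay between the BMP4 arrays at 10 ng/ml, at 0.69 from methanol (95% interval 0.07 to 1.30, adjusted p = 0.718 in limma). Ptgis was 9.40, 9.51 and 9.18 under 181, 9.57, 9.62 and 9.34 under 178, and 9.63, 9.49 and 9.57 under 942. At 25 µM of 181 it was the lowest outside BMP4 and below all controls, at -0.39 from methanol (95% interval -0.77 to -0.01, adjusted p = 0.768). Of the 4 genes not called for BMP4, the largest mean difference was that of Ptger2 under 942, at -0.51 (95% interval -1.15 to 0.13). Most of it came from the labelling term, as the pair of BMP4 300 ng/ml arrays differed by 0.44 for this gene near the floor; the 942 arrays themselves were 0.21, 0.12 and 0.20 lower than the methanol array of their run.

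The 3 pairs of compounds were compared at matched doses and as means over the doses. For 181 minus 178, 0.00451% of genes were called, none of them among the 8, and 3 of the 8 had an unadjusted p under 0.05 (1173 of all genes in limma). The difference was 0.68 for Hpgd (95% interval 0.25 to 1.12, adjusted p = 0.778), 0.67 for Ptgfr (95% interval 0.33 to 1.0, adjusted p = 0.641) and -0.36 for Ptger2 (95% interval -0.68 to -0.04, adjusted p = 0.918). At 25 µM it was 1.22 for Hpgd (95% interval 0.46 to 1.97, adjusted p = 0.649) and 0.74 for Ptgfr (95% interval 0.15 to 1.32, adjusted p = 0.784). For 942 minus 178 and 942 minus 181, 0% of genes were called and none of the 8 means had an unadjusted p under 0.05 (401 and 364 of all genes). Hpgd differed by -0.83 between 942 and 181 (95% interval -1.70 to 0.04) and by -0.15 between 942 and 178 (95% interval -1.02 to 0.72). These intervals are too wide to show that any of these compounds act alike. All 942 arrays were of the first run and all of 178 and 181 of the second, and the main fit held no term for the run. Against the methanol of its own run, with no correction for labelling, Hpgd differed by 0.41, 0.004 and 0.55 under 942 with rising dose. The differences were 0.02, 0.47 and 1.22 under 181, and -0.21, -0.13 and 0.0004 under 178. At 25 µM, 942 minus 181 was -1.25 for Hpgd (95% interval -2.31 to -0.18), from 1 array of each compound, in different runs. Against the methanol of its own run, the 942 array differed by 0.55 and the 181 array by 1.22.

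**Figure D4:**
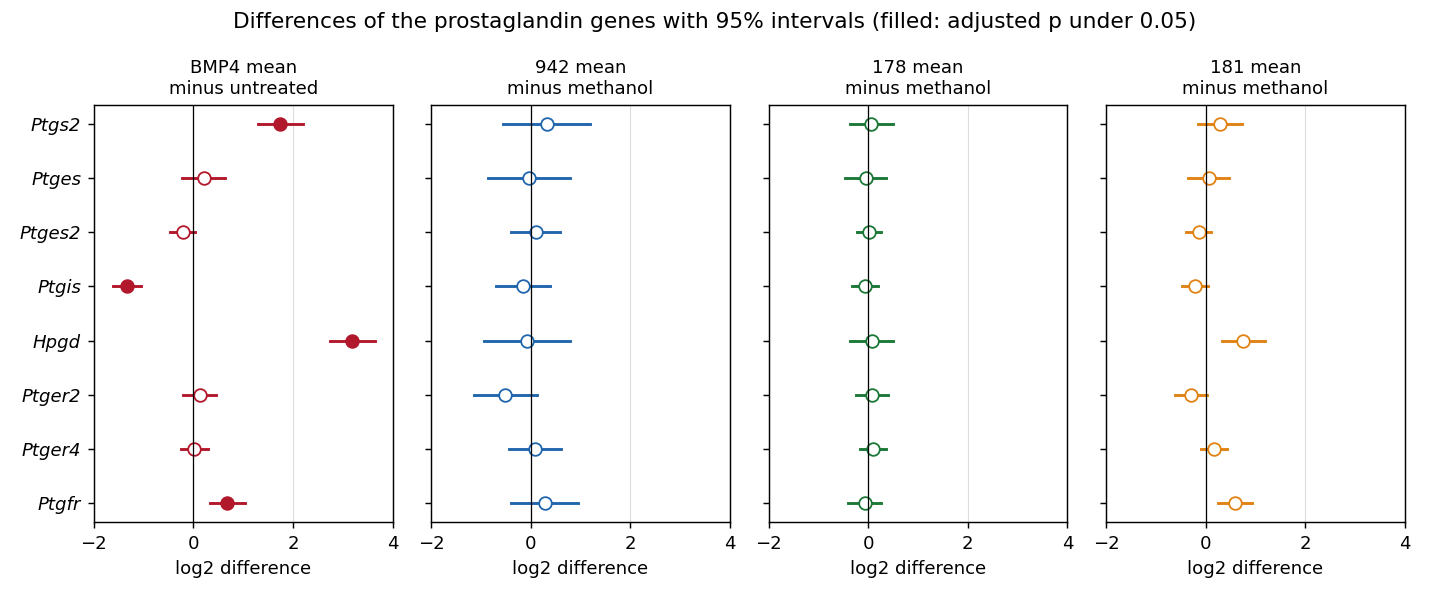
Log2 difference with 95% interval, unadjusted (horizontal axis), of the 8 genes (rows) for the BMP4 mean minus untreated and for the mean of each compound minus methanol; filled points had an adjusted p under 0.05 in limma. Filled points appear for BMP4 alone, at Ptgs2, Ptgis, Hpgd and Ptgfr; for 181, the intervals of Hpgd and Ptgfr lie above 0.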

How the data were processed

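The deposited table held log2 signals of 41345 probe sets on 20 arrays, made by the authors in Partek 6.5 with RMA, per the submitters' processing notes; any correction of labelling batches is not stated in the sources used. Of the probe sets, 23521 carried 1 gene symbol, 1814 several and 16010 none in the platform annotation. Probe sets with 1 symbol were used, and the highest mean signal stood for each of 1082 genes with over 1.

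With limma 3.58.1 in R 4.3.3, 1 mean per treatment and dose and a labelling term were fitted to all arrays (5 residual degrees of freedom, a median of 6.73 from the prior, trend on the mean signal). A single array was assumed to vary like the replicated groups. A call was a p under 0.05 after Benjamini-Hochberg adjustment over 22180 genes. Doses of 12.5 µM and 100 ng/ml come from the titles, as the treatment protocol lists neither. Methanol was taken as the vehicle because the protocol names it beside the compounds. The fit was tested on simulated data.

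The members and lists were chosen with earlier results of these data known. Named were all members, each gene of the other lists called in the BMP4 mean, the responders, and the 3 genes most like each called member by Pearson's r. The genes of these lists with values that were not called (Ptges3, Ptgds, Hpgds, Tbxas1, Ptgr1, Ptgr2 and Zadh2) were chosen after their values were seen. Alternatives changed 1 choice at a time. The number of arrays limits the precision.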

Additional observations from a re-analysis of the deposited data

How the results depend on the processing

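Hpgd (2.70 to 3.60), Ptgs2 (1.25 to 1.91) and Ptgis (-1.51 to -1.0) kept direction and call for the BMP4 mean in each of 10 other settings and 20 fits without 1 array; Ptgfr kept its direction and lost its call without either untreated array. At 10 ng/ml 1 member was called, 2 with both kinds of control array pooled, and 0 to 1 without 1 array. At 100 ng/ml Ptges2 was called too with a term for the run, with both controls together and over genes with a mean signal of at least 5, and Ptgfr was not called with median centring and in 6 of 20 fits without 1 array. At 300 ng/ml Ptgfr was called without the labelling term. Ptger4 passed by slope in 3 of 7 settings and 2 of 20 fits without 1 array. The counts of 0 for the compounds and for methanol stayed at 0 in each setting run. Of the other pathway genes 15 were called, 25 with a term for the run, 31 with both controls together, 26 with methanol as the control, and 8 to 21 without 1 array; these alternatives were chosen after seeing the data. Against methanol the BMP4 difference of Ptger2 was -0.017, and that of Ptger4 was -0.073, with -0.036 with both controls together, -0.030 without the labelling term, -0.054 with a common mean for the doses, and -0.165 to 0.097 without 1 array. Quantile normalization and median centring moved the median of all genes by under 0.1. The contrasts of 942 could not be fitted without either array of BMP4 300 ng/ml. Nor could that dose without its replicate 2, so BMP4 means and slopes without that array covered 10 and 100 ng/ml only. The range ends 2.70 for Hpgd, 1.25 for Ptgs2, -1.0 for Ptgis and -0.165 for Ptger4 are such means. The labels give no replicate numbers to pair arrays by; the term for the run, which holds each BMP4 dose and an untreated array in both runs, changed no call of a member in the BMP4 mean. Few arrays and, for 942, the labelling term limit what could be called.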
